A study of Mus musculus with 2 samples.

Results

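The thioredoxins, the peroxiredoxins and sulfiredoxin were examined as a group of 10 genes, Txn1, Txn2, Txnrd1, Txnrd2, Srxn1 and Prdx1 to Prdx5, in bone marrow KSL cells with and without NRF2. KSL cells carry c-Kit and Sca-1, lack markers of mature blood lineages and include the haematopoietic stem cells and early progenitors of the marrow. A gene was measured where a probe set of the array was annotated with exactly 1 gene symbol, and the probe sets of a gene were averaged. By this rule 9 of the 10 genes were measured, by 11 probe sets, among 19938 genes in all. Prdx5 was not analysed here.

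The 2 arrays were 1 of the Nrf2 KO genotype and 1 of the wild type, both on the C57BL/6J background. Per the labels, the animals were healthy, 8 to 10 weeks old and kept in a germ-free facility, and the study asked how NRF2, encoded by Nfe2l2, bears on haematopoietic stem cell survival. Marrow of 5 mice was pooled for each genotype before sorting, and 1 amplified RNA pool per genotype was hybridised to an Affymetrix Mouse Gene ST 1.0 array. Each gene therefore had 1 knockout and 1 wild-type value, with no replicate and no p-value, and the number of arrays limited the precision. The deleted part of Nfe2l2, and the cells it was deleted in, are not given in the labels.

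Thioredoxins are small proteins that reduce disulfide bonds in other proteins, and thioredoxin reductases, which are selenoproteins, return them to the reduced form with electrons from NADPH. Peroxiredoxins are abundant peroxidases that remove hydrogen peroxide and mostly draw their electrons from thioredoxin, and sulfiredoxin repairs peroxiredoxins that peroxide has overoxidised. NRF2 binds the antioxidant response element in DNA, and Txnrd1, Srxn1, Prdx1 and Txn1 are textbook targets of it.

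The array values are log2 intensities, and a difference is always the log2 value of the knockout array minus that of the wild-type array. A level filter kept the 9970 genes whose mean over both arrays reached the median over genes, 6.57, and all 9 measured genes of the group passed it. Txnrd2 passed narrowly, with its wild-type value of 6.53 below that level. Differences of the genes past the filter had an SD of 0.33, and their middle 95% lay between −0.73 and 0.57. Genes with exactly 2 probe sets, 515 in number, gave an SD of 0.32 for the error of a difference from a single probe set, or 0.17 by a robust estimate. It holds no variation between mice, cell sorts or RNA amplifications. Nfe2l2 itself read 9.07 without and 9.16 with the intact gene, a difference of −0.09, so its probe set did not separate the genotypes.

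Most measured markers of the sorted population passed the level filter. Kit, which encodes c-Kit, read 11.21 in knockout and 10.93 in wild-type cells, while Ly6a, which encodes Sca-1, was not analysed here. Of the 12 KSL and stem cell markers measured, 10 passed the filter. Of these, 6 were higher and 4 lower in the knockout, with a median difference of 0.09. Below the filter were Slamf1, at 6.43 in knockout and 5.73 in wild-type cells, and Tek, at 6.03 and 6.58. Of the 8 genes measured in a list to check for mature lineages, 3 passed the filter. Among these was Ptprc, a gene of blood cells in general and not of a mature lineage, at 10.51 in knockout and 10.36 in wild-type cells. The largest differences of the list were in Itgam, a myeloid integrin, at 7.57 in knockout and 8.52 in wild-type cells, Ly6g of neutrophils, at 5.41 and 4.90, and Cd5 of lymphocytes, at 5.82 and 6.19. Neutrophil markers were lower in the knockout array in 16 of 17 genes past the filter, with a median of −1.45. Among all genes past the filter, 52.9% were lower. The summed linear intensity of the 19 neutrophil markers measured was 8422 in knockout and 18934 in wild-type cells. Over all 19, without the filter, 17 were lower, with a median of −1.36. Within the list, the granule protein gene Lcn2 differed by −2.10 and the secreted Retnlg by −2.66. Retnlg read 5.36 in knockout and 8.01 in wild-type cells, so it passed the filter only through the wild-type array, as some other markers did. Monocyte and macrophage markers were lower in 9 of 10 genes past the filter, with a median of −0.62, and their 14 measured genes summed to 2751 in knockout and 3727 in wild-type cells. Some of these also passed the filter only through the wild-type array. Without the filter, 12 of the 14 were lower, with a median of −0.64. Cd68, past the filter, went the other way, at 9.31 in knockout and 8.68 in wild-type cells, or 1.55-fold higher. In pooled cells, fewer cells of a type and less RNA per cell cannot be told apart.

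Promoter sequences were searched for the core of the antioxidant response element, since the comparison is of cells with and without the factor that binds it. The searched window ran from 250 bases before to 50 bases after each annotated gene start, 300 bases in all, in the RefSeq promoter table of GRCm38.p6, which held 12 windows for all 10 genes of the group. The core TGACNNNGC, looked for on both strands, was in 3 of the 12 windows, 1 each of Srxn1, Prdx1 and Txnrd1, against 12.4% of the 32851 windows in the table. The shorter core TGANNNNGC, which includes the first, was in 6 of the 12 windows and in 41.3% of all windows. The windows of these 3 genes are shown with that of Prdx4, whose array values differed by the most and whose window held no match. The windows are read 5′ to 3′ on the strand of the gene, and capitals mark every match of the shorter core on either strand.
Srxn1, chr2:152105274-152105573, plus strand: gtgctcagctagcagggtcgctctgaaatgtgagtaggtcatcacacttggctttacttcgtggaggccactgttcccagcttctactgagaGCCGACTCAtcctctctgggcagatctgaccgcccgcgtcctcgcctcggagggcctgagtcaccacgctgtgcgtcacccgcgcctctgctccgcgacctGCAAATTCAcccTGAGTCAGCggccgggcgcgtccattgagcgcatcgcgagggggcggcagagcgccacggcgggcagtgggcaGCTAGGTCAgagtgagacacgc
Prdx1, chr4:116685349-116685648, plus strand: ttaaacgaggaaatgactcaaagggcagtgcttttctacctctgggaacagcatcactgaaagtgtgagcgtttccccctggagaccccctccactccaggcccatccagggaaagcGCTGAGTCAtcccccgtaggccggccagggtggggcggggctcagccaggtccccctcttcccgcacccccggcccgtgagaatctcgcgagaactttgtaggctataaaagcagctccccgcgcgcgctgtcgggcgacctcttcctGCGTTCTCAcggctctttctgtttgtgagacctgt
Txnrd1, chr10:82858956-82859255, plus strand: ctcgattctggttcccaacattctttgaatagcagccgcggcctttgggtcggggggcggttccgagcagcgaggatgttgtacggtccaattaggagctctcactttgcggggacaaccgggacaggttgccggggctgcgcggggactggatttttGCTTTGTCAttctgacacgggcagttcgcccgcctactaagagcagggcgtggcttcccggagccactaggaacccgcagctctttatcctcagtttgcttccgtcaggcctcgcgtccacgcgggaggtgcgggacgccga
Prdx4, chrX:155338411-155338710, minus strand: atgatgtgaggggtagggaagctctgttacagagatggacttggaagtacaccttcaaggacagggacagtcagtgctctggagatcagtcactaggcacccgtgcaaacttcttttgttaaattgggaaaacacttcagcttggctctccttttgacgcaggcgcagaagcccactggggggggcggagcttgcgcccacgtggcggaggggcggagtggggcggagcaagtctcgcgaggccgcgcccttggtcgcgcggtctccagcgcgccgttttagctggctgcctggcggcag

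In Prdx1 the core match began 133 bases before the gene start and, read on the minus strand of the window, was TGACTCAGC, a form found in 0.454% of all windows. In Txnrd1 the match, TGACAAAGC, began 92 bases before the second of its 3 annotated starts. In Srxn1 the match to the core, TGACCTAGC, began 28 bases after the first base of the transcript, and the shorter core matched at 3 more places before the start, among them TGAGTCAGC at 45 bases. A match of these letters is a description and not a binding site, and the window leaves out more distant elements.

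Over the 9 genes, the knockout and wild-type arrays were close to level, and the one gene past 1.5-fold was Prdx4, the peroxiredoxin of the endoplasmic reticulum (ER). The count lower was 6 and the count higher 3, with a median difference of −0.01, beside a median of −0.02 and 52.9% lower among all genes past the filter. At least 1.5-fold lower was 1 of the 9, against 4.3% of genes past the filter and 3.15% of all genes measured. At least 1.5-fold higher was 0 of the 9, against 2.34% of genes past the filter and 1.74% of all genes measured. No gene of the group reached 2-fold either way, a size that 0.762% of genes past the filter reached downwards and 0.411% upwards. With 9 genes, 1 call does not set the group apart from that background. The sign of the median and the count lower are not firm: with quantile normalization or loess the median was 0.01 and 4 of the 9 were lower.

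**Figure D1:**
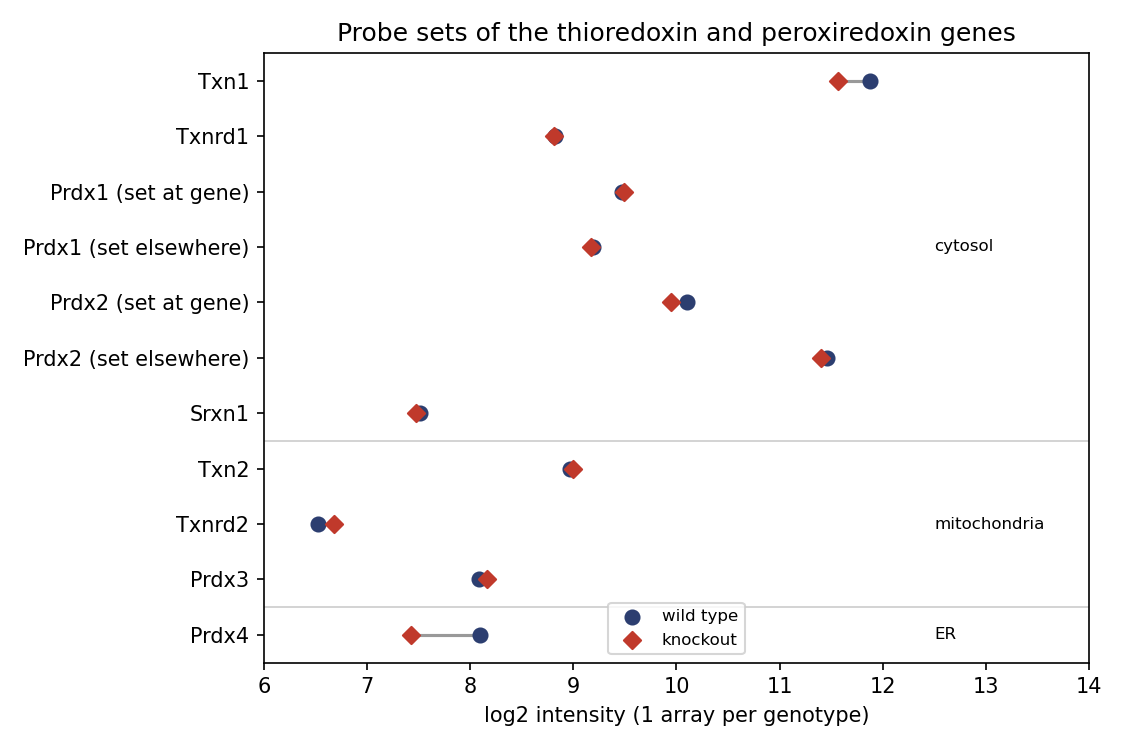
Log2 intensity (x axis) of each of the 11 probe sets of the 9 measured genes (y axis), wild type as circles and knockout as diamonds, 1 array each, grouped by where the protein works; levels of different probe sets are not comparable. Prdx4 and Txn1 are the pairs that stand visibly apart, with the knockout lower in both.

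Of the thioredoxins, the cytosolic one was lower in the knockout and the mitochondrial one was level. Txn1, which encodes the cytosolic thioredoxin, had a log2 intensity of 11.57 in knockout cells and 11.88 in wild-type cells. The difference of −0.31 put the knockout at 80.7% of the wild-type intensity. It was the second largest of the group, within 1 SD of all genes past the filter, and 25.5% of those genes differed by more in either direction. Txn2, which encodes the mitochondrial thioredoxin, had a log2 intensity of 8.997 in knockout cells and 8.971 in wild-type cells, a difference of 0.03. Both genes had a single probe set, so neither difference could be checked with a second one, and that of Txn1 lay within the probe-set SD of 0.32 and beyond its robust estimate of 0.17.

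The reductases that recharge the thioredoxins did not differ beyond the probe-set error. Txnrd1, the cytosolic enzyme, had a log2 intensity of 8.81 in knockout cells and 8.83 in wild-type cells. Its difference of −0.01 turned to 0.01 with quantile normalization or loess, so it has no direction. Txnrd2, the mitochondrial enzyme, had a log2 intensity of 6.68 in knockout cells and 6.53 in wild-type cells, a difference of 0.15. This was the highest of the group, a 1.11-fold difference in a gene close to the filter level, and 53.5% of genes past the filter differed by more.

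Sulfiredoxin was level as well. Srxn1 had a log2 intensity of 7.47 in knockout cells and 7.51 in wild-type cells, a difference of −0.04 that left the knockout at 97.4% of the wild-type intensity. Of genes past the filter, 87.3% differed by more.

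The peroxiredoxins ranged from 1.06-fold higher to 1.60-fold lower in the knockout. Prdx4, whose protein helps to use hydrogen peroxide for disulfide formation in the ER, had a log2 intensity of 7.42 in knockout cells and 8.10 in wild-type cells. The difference of −0.67 put the knockout at 62.6% of the wild-type intensity. It exceeded the probe-set SD of 0.32 but lay inside the middle 95% of genes past the filter, 3.04% of which were lower still. Under median centring, quantile normalization and loess it stayed between −0.68 and −0.65. The deposited arrays already had nearly the same distribution, so these settings could move it little. Prdx4 had a single probe set, and the knockout array also had lower neutrophil and monocyte markers, with medians of −1.45 and −0.62, whose part in the Prdx4 difference was not tested.

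Prdx1 and Prdx2, the cytosolic peroxiredoxins, each had 2 probe sets, which made them the only genes of the group with a second reading. The Prdx1 probe sets read 9.49 and 9.17 in the knockout against 9.47 and 9.19 in the wild-type array, differences of 0.02 and −0.02. Their mean was level, at −0.0009, and the sign is not meaningful. The Prdx2 probe sets read 9.95 and 11.40 in the knockout against 10.10 and 11.46 in the wild-type array. Their differences were −0.15 and −0.06, with a mean of −0.10, or 93.0% of the wild-type intensity. Both readings of Prdx2 had the knockout lower, by less than the robust probe-set error.

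One probe set of each pair was numbered away from its gene. For the other 9 probe sets, 13 to 20 of the 20 nearest named neighbours in number order were of genes on the gene's own chromosome. The Prdx2 probe set with the difference of −0.06 lay in number order between those of Pam and Rnf152, and all 20 of its neighbours were of genes on chromosome 1, whereas Prdx2 is on chromosome 8 in GRCm38.p6. That annotation places the pseudogene Prdx2-ps1 between Pam and Rnf152. The Prdx1 probe set with the difference of −0.02 had all 20 neighbours on chromosome 16, whereas Prdx1 is on chromosome 4. It lay between those of Gcsam and Dppa4, and none of the 9 pseudogenes annotated between these carried a Prdx1 name. A gene and a pseudogene copy of it can share probes, which makes the Prdx2 reading beside Prdx2-ps1 less sure. Without both probe sets Prdx1 differed by 0.02 and Prdx2 by −0.15, a comparison chosen after the values were seen.

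Prdx3, the mitochondrial peroxiredoxin, had a log2 intensity of 8.17 in knockout cells and 8.08 in wild-type cells, a difference of 0.08, or 1.06-fold. With Txn2 and Txnrd2 it forms the mitochondrial branch of the system. All 3 mitochondrial genes were slightly higher in the knockout, by 0.03 to 0.15, and all 5 cytosolic genes slightly lower, with differences between −0.31 and −0.0009. Under the alternative normalizations the mitochondrial values stayed above 0, while Txnrd1 and Prdx1 turned above 0 with quantile normalization and loess. Those settings moved the median of genes past the filter up, by 0.0239 and 0.0211. They could hardly turn a value already above 0, so the signs do not show that either pattern is firmer. All 3 mitochondrial differences were under the robust probe-set error of 0.17, and no test of the contrast between compartments could be made from 1 array per genotype.

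**Figure D2:**
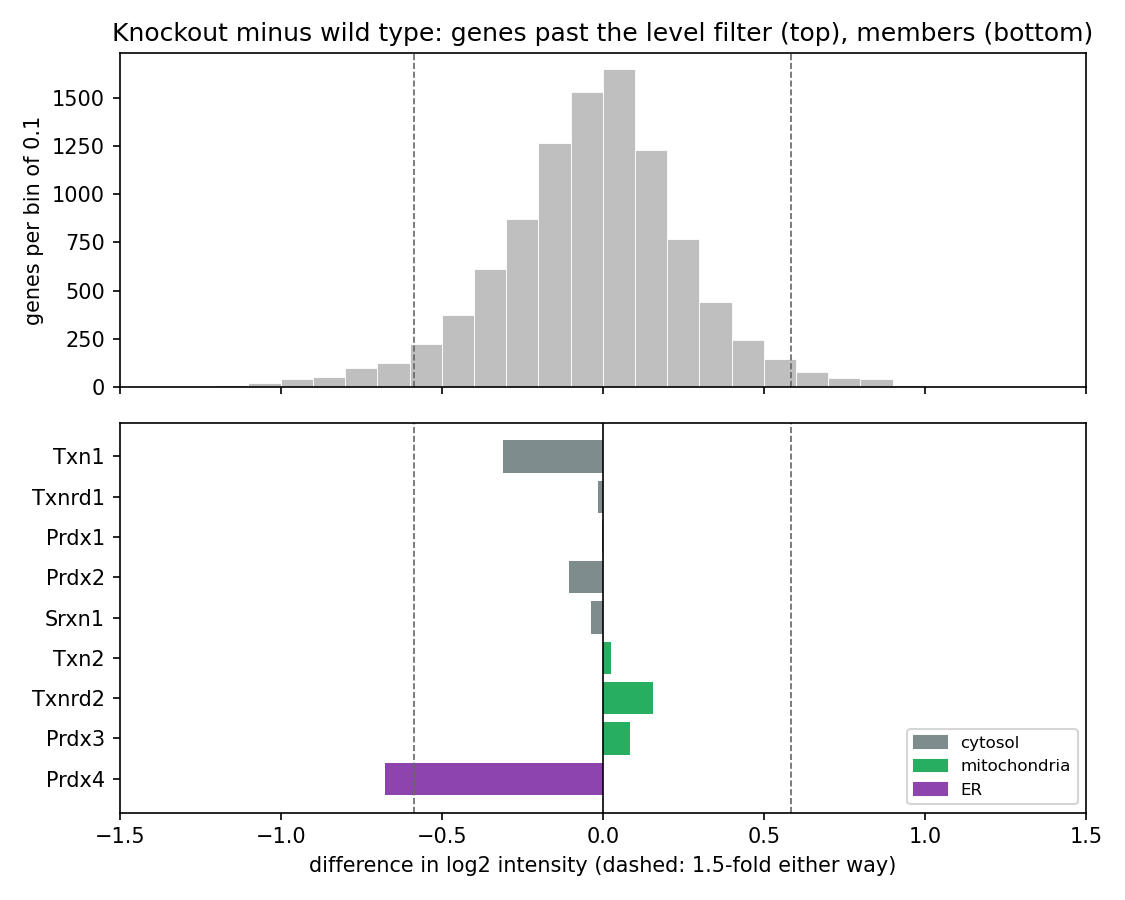
Difference in log2 intensity, knockout minus wild type (shared x axis), as a histogram of genes past the level filter in bins of 0.1 (top; 39 genes beyond 1.5 are not drawn) and as 1 bar per gene coloured by compartment (bottom), with dashed lines at 1.5-fold. Prdx4, at −0.67, is the only bar past a dashed line, and the other bars lie within the bulk of the histogram.

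Set beside the promoter sequences above, the 3 genes with the core motif were the ones nearest to level among the cytosolic genes. Srxn1, Txnrd1 and Prdx1 differed by −0.04, −0.01 and −0.0009, and the 6 measured genes without it ranged from −0.67 in Prdx4 to 0.15 in Txnrd2. Mitochondrial Txn2, also without the core, differed by 0.03, nearer to level than Srxn1. With quantile normalization that order was reversed, with Srxn1 at −0.0076 and Txn2 at 0.0641, and with loess as well. All of these differences are under the robust probe-set error of 0.17, so they cannot show whether the group split by the motif. Across all genes past the filter with a promoter window, the 1355 with the core had a median of −0.02 and 3.69% at least 1.5-fold lower. The 6708 without it also had a median of −0.02, with 4.28% at least 1.5-fold lower. The 38 genes past the filter with the strict form TGACTCAGC, Prdx1 among them, had a median of −0.04. At least 1.5-fold lower were 3 of them, or 7.89%, a share that rests on few genes. The 8025 without that form had a median of −0.02, with 4.16% at least 1.5-fold lower. The comparison with the motif in all genes was chosen after the values were seen.

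Other genes of the thioredoxin family were scattered around level. Of 22 listed, 21 were measured and 16 passed the filter, 9 lower and 7 higher, with a median of −0.09. The sign of that median depends on the level filter, since it was 0.015 with no filter and 0.013 at the 75th percentile. Tmx4, a membrane-bound thioredoxin-like protein of the ER, was the only one past 1.5-fold, at 8.75 in knockout and 8.06 in wild-type cells, or 1.61-fold higher. For scale, 52.9% of all genes past the filter were lower, while 2.34% reached 1.5-fold upwards and 4.3% downwards. The same shares are the background for the lists that follow. Txndc12, another ER thioredoxin-like protein, was higher by 0.56. Txnip, which binds and inhibits thioredoxin, stood at 10.51 against 11.09, a difference of −0.58 that was just short of 1.5-fold and passed it with median centring. Txndc16 differed by −0.43. Txnrd3, the thioredoxin-glutathione reductase best known from testis, stood at 6.10 and 6.00, below the filter level, and Prdx6 was not analysed here.

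Genes of oxidative folding in the ER, the setting in which the Prdx4 protein works, did not share a direction. Of 19 listed, 14 passed the filter, 8 lower and 6 higher, with a median of −0.12 and 0 past 1.5-fold either way. The sulfhydryl oxidase Qsox1 differed by −0.53. The ER oxidases that supply disulfides to protein disulfide isomerase went opposite ways, with Ero1b at −0.38 and Ero1a at 0.37. Pdia5, a protein disulfide isomerase, differed by −0.32. In the genes past the stricter filter at the 75th percentile, the median of this list was 0.072, so its sign depends on the level filter.

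Genes that make selenoproteins, the class to which the thioredoxin reductases belong, had 6 of 10 genes higher and a median of 0.09. Both selenophosphate synthetase paralogues were measured, Sephs1 at −0.44 and Sephs2, the one that makes the selenium donor, at 0.37. The selenocysteine insertion factor Secisbp2 was higher by 0.43 and its paralogue Secisbp2l differed by −0.38. None of the 10 was past 1.5-fold.

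Proteins that depend on thioredoxin or are regulated by it had 3 of 7 genes lower and 4 higher, a median of 0.00 and 0 past 1.5-fold. The ribonucleotide reductase subunits Rrm2b and Rrm2 were higher by 0.50 and 0.25, while the large subunit Rrm1 was level, with a difference of 0.0025. The methionine sulfoxide reductase Msrb1 differed by −0.31, and Map3k5, which encodes the stress kinase ASK1 that thioredoxin holds inactive, by −0.18. Glutaredoxins and sestrins had 5 of 7 genes lower and a median of −0.06. Within that list Glrx and Sesn1 differed by −0.31 each, Glrx2 by −0.24 and Sesn2 by 0.16.

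**Figure D3:**
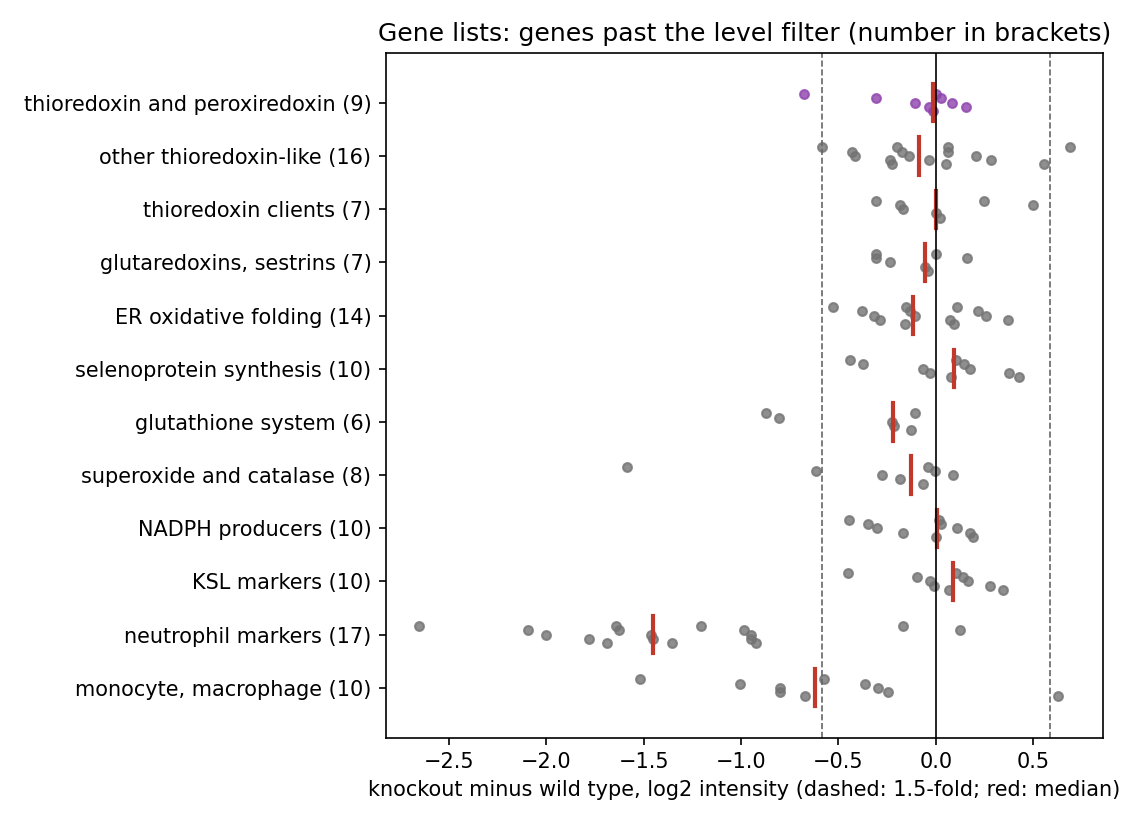
Difference in log2 intensity, knockout minus wild type (x axis), of each gene past the level filter in the gene lists (y axis, number of genes in brackets), with the median of each list as a red bar and dashed lines at 1.5-fold. The 9 thioredoxin and peroxiredoxin genes centre on −0.01, near the NADPH producers, while glutathione genes centre on −0.22 and neutrophil markers on −1.45.

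The related glutathione system was lower in all 6 of its genes past the filter, with a median of −0.22 against −0.01 for the thioredoxin and peroxiredoxin genes. Its other 2 measured genes, Gpx3 and Slc7a11, were below the filter and higher in the knockout, by 0.52 and 0.63. Gsr, which recharges glutathione as Txnrd1 recharges thioredoxin, was 1.83-fold lower, and Gclc, which limits glutathione synthesis, 1.75-fold lower. Superoxide and catalase genes, which here include those of the phagocyte oxidase that makes superoxide, had 7 of 8 lower and a median of −0.13. Among all genes past the filter, 52.9% were lower. The list was led by the oxidase gene Cybb at −1.59 and mitochondrial Sod2 at −0.61, while Sod1 and Cat differed by −0.04 and −0.07. The part that the lower neutrophil markers, at a median of −1.45, have in these values was not tested. Enzymes that make NADPH, the electron source of thioredoxin reductase, had 4 of 10 lower and a median of 0.01, with Taldo1 at −0.445, Rpe at −0.35 and Rpia at −0.30. These medians are set side by side, and with 1 array per genotype the differences between the lists were not tested.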

How the data were processed

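Total RNA of 2 pools of sorted KSL cells was profiled on 1 array each. Per the labels' protocols, it came from a Qiagen RNeasy micro kit and was amplified and labelled with NuGEN Ovation kits. Partek is named per the submitters' processing notes, with no version or role. How background, normalization and probe summary were handled is not given in the sources used here. Values as deposited by the authors are on a log2 intensity scale, with the base taken from their range, 2.40 to 13.79. Sorted by size, the columns differed by at most 0.0866, so the arrays had been brought to nearly the same distribution and a shift of all genes together could not be seen.

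Of 28853 probe sets, 21789 had 1 gene symbol, 1621 several and 5443 none. Those with 1 symbol were averaged per gene, and 21698 of them matched GRCm38.p6 by Entrez ID, with 0 symbols changed. Differences were taken with no further scaling and counted at 1.5-fold. The genes, lists and rules were chosen with earlier results of these data known.

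Named genes were the 10 members, Nfe2l2, Prdx6, Txnip, Txnrd3, Kit and Ly6a, up to 4 genes of a pathway list with the largest difference and every one past 1.5-fold, and at most 3 of a marker list. Ptprc, Cd68, Rrm1, Sod1 and Cat are named besides, to show how their lists are made up. Lists of other cell types had medians past the filter of −0.11 for the lineage check (3 genes), 0.03 for erythroid (3), 0.18 for B cell (5), −0.30 for T and NK (2) and −0.19 for mast cell and basophil genes (5). A planned comparison of protein sequences was not run. Scripts were tested on simulated data and used Python 3.11.15, numpy 2.4.6, pandas 2.3.3, statsmodels 0.14.6 and matplotlib 3.10.9.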

Additional observations from a re-analysis of the deposited data

How the results depend on the processing

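Alternatives were median centring, quantile normalization, loess on mean level with a span of 0.3, the probe set with the highest mean, other level filters, 2-fold in place of 1.5-fold and, chosen after seeing the data, leaving out the probe sets of Prdx1 and Prdx2 placed on another chromosome. All 45 values of the 9 genes under the 5 alternatives of scaling and probe sets lay within the robust probe-set error of the reported value. This says little about error. Only Prdx1 and Prdx2 had a second probe set to choose or leave out. The sorted columns differed by at most 0.0866 as deposited, so scaling could move a gene little. Signs turned for 2 genes, Txnrd1 and Prdx1. The count of genes lower by the size used was 0 at 2-fold, and 0 at 1.5-fold without Prdx4. At the 75th percentile filter, the median of glutaredoxins and sestrins was −0.24, that of ER oxidative folding 0.072, other thioredoxin-like genes 0.013, superoxide and catalase −0.23, T and NK −0.48, the lineage check 0.14 and mast cell and basophil genes 0.52, all over fewer genes. At that filter the lineage check held Ptprc alone. With no filter, other thioredoxin-like genes had 0.015. With the probe set of highest mean, B cell genes had 0.36. Median centring turned the medians of thioredoxin clients and NADPH producers to −0.0064 and −0.0011. The shorter core matched 5 of the 10 genes and 41.3% of windows, and the stricter TGACTCAGC 1 gene and 0.454%. No scaling moved the median of genes past the filter by over 0.0239. No paired analysis was possible because each genotype had 1 array. For the same reason no replicate could be left out, and 1 array per genotype limits every value.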
